A study of Mus musculus with 6 samples.

Results

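The helper proteins of the Toll-like receptors (TLRs) were examined in splenic monocytes of mice after vancomycin gavage. They comprise 9 genes, chosen by symbol among the 46072 gene identifiers of the expression tables, each standing on 1 row. Cd14, Cd36, Ly96, Cd180 and Ly86 encode coreceptors and accessory proteins of the cell surface, Unc93b1, Cnpy3 and Hsp90b1 encode proteins that fold or escort TLRs, and Lrrc32 encodes a surface carrier of latent TGF-beta that also needs the Hsp90b1 chaperone. All 9 genes passed the expression filter and were among the 16138 identifiers tested.

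The mice were female C57BL/6 animals in 2 groups with 3 libraries each, and the question was how the monocyte transcriptome differs after vancomycin gavage and rest. The Van group received 2 mg of vancomycin a day by oral gavage for 6 days and the Con group received water on the same schedule. Both groups were then left without antibiotic, for 6 to 8 days per the labels and the general methods and for 8 days where the RNA experiment is described, so that the comparison is between rested animals and not between animals under treatment. Monocytes were enriched from the spleen by magnetic negative selection and were not stimulated, and polyadenylated RNA was sequenced. The RNA experiment used 3 mice in each group, which matches the number of libraries, while the labels name no animal.

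TLRs at the cell surface read bacterial lipids with the help of partner proteins. CD14 hands lipopolysaccharide to the complex of TLR4 and MD-2 (the product of Ly96), and CD36 assists TLR2 with lipoproteins. CD180 (also called RP105) resembles TLR4 on the outside but lacks its signalling domain, sits on the cell surface bound to MD-1 (the product of Ly86), and is known in myeloid cells as a brake on TLR4. Inside the cell, gp96 (the product of Hsp90b1) and its cochaperone Cnpy3 fold TLRs in the endoplasmic reticulum (ER), and Unc93b1 carries the nucleic acid sensors such as TLR7 and TLR9 from there to endosomes.

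The libraries held totals of 43383919 to 61834407 estimated counts, and markers were summed per library. The markers of nonclassical monocytes summed to between 9711 and 13379 CPM (counts scaled to the size of the library) and those of classical monocytes to between 3424 and 6719 CPM, and markers of red pulp macrophages summed to between 3526 and 5265 CPM, so the cells carried monocyte transcripts together with those of splenic macrophages. In Van, all 9 macrophage markers had a higher mean, a median log2 fold change of 0.24 and 0 calls by edgeR, that is, none with an adjusted p of 0.05 or less (5 had an unadjusted p under 0.05, and DESeq2 called 2). All 8 erythroid markers tested were higher in Van as well, of which 5 were called, and their sum ranged from 81.2 to 169 CPM in Con and from 282 to 622 CPM in Van. In bulk RNA, fewer cells of a type and less RNA per cell cannot be told apart.

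Compared with the Con mice, Cd180 fell by 40.0% in the Van mice. It was the only one of the 9 genes that edgeR called, with calls made where the Benjamini-Hochberg adjusted p over all identifiers was 0.05 or less. Over the whole table the same rule called 322 of 16138 identifiers (2.00%), with 1.08% called upward and 0.917% downward. The 3 Con and 3 Van values did not overlap for 6 of the 9 genes, against 22.5% of all identifiers tested, and for 5 on quantile-normalised log2 FPKM, where Cd14 overlapped. Of those 6, Cd14, Cnpy3 and Hsp90b1 were higher and Cd180, Ly86 and Unc93b1 lower in Van, where non-overlap upward was found for 11.5% and downward for 11.0% of all identifiers. The same 6 genes were those with an unadjusted p under 0.05, a level that 16.5% of all identifiers reached, 8.37% as higher and 8.14% as lower in Van. The helper genes did not move as a block, with 3 above and 6 below zero and a median log2 fold change of -0.04, beside -0.0014 over all identifiers tested.

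**Figure D1:**
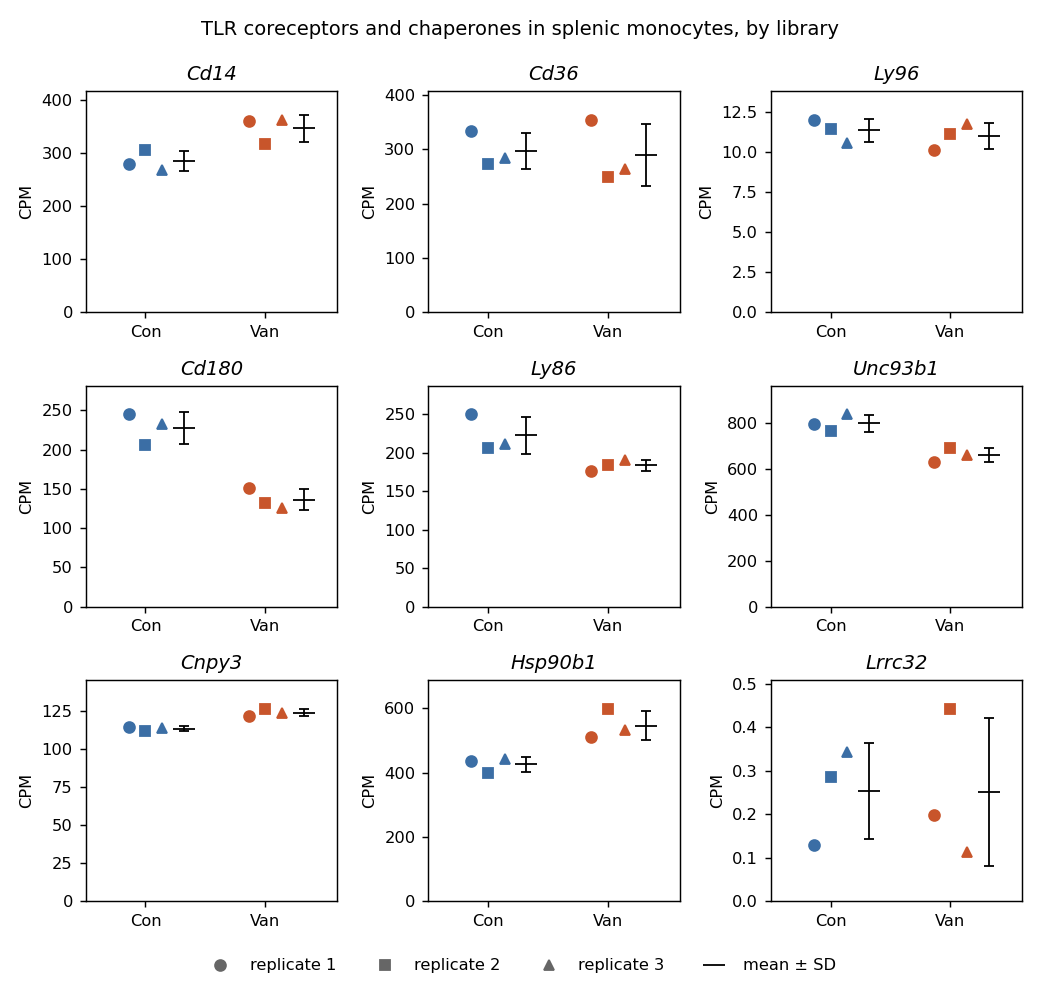
Each panel shows one gene in CPM, from 0, with 1 point per library in the Con (blue) and Van (orange) groups and the mean with its SD (n = 3) beside them. The 3 Van points of Cd180 lie between 126 and 151 CPM, below the Con range of 206 to 245 CPM, whereas those of Cd36, Ly96 and Lrrc32 overlap the Con points.

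Cd180 lies on chromosome 13 (chr13:102693558-102739629 in GRCm38, plus strand). Its level was 245, 206 and 232 CPM in the 3 Con libraries and 151, 133 and 126 CPM in the 3 Van libraries. The lowest Con library stood well above the highest Van library, so the groups were clearly apart. The mean went from 227 ± 19.995 CPM to 136 ± 13.2 CPM after vancomycin (SD, n = 3 each), a log2 fold change of -0.74 (SE 0.09, 95% interval -0.94 to -0.53) with an adjusted p of 0.0129 from edgeR's quasi-likelihood test. Among the 8487 identifiers with a mean of at least 10 CPM, 99.4% had a smaller absolute log2 fold change. The exact two-sided permutation test of CPM gave p = 0.1, the smallest that 3 libraries against 3 can give. The call was lost without Con replicate 3 (log2 fold change -0.72, adjusted p 0.0721 by edgeR) and without Van replicate 2 (-0.72, adjusted p 0.0758 by edgeR), and under limma on log2(FPKM + 1) (-0.71, adjusted p 0.0723) and log2(FPKM + 0.1) (-0.73, adjusted p 0.186).

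Cd180 is also abundant on B cells, whose 8 markers all had a lower mean in Van (median log2 fold change -0.50, with 0 called by edgeR, 2 at an unadjusted p under 0.05 and 1 called by DESeq2). Their sum ranged from 47.1 to 49.1 CPM in Con and from 36.8 to 39.9 CPM in Van. The mean of that sum was 9.74 CPM lower in Van, and Cd180 was lower by 91.1 CPM. The magnetic selection is designed to deplete B cells, and the part of any remaining B cells in the Cd180 difference was not tested. The exons of Cd180 share 182 bases with Mast4 on the opposite strand, which was at a mean of 1.30 FPKM (fragments scaled to transcript length and library size) against 58.9 FPKM for Cd180.

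Ly86 encodes MD-1, the protein without which CD180 reaches the cell surface poorly (chr13:37345208-37419036, plus strand). The Con libraries held 250, 206 and 212 CPM and the Van libraries 176, 184 and 191 CPM. Every Van library lay below every Con library, with a narrower gap than for Cd180. The means were 223 ± 23.7 CPM and 184 ± 7.36 CPM (SD, n = 3 each). The log2 fold change of -0.28 (SE 0.08) did not pass the threshold in edgeR (unadjusted p 0.00753, adjusted p 0.126). DESeq2 called Ly86 (adjusted p 0.0210), as the 1 of 10 other settings to do so, and 0 of the 6 fits that left out a library did. Since Ly86 differed by less than Cd180, the FPKM ratio of Ly86 to Cd180 shifted. It was 2.67, 2.63 and 2.39 in the Con libraries and 2.98, 3.62 and 3.88 in the Van libraries, with no overlap. The difference of the mean log2 ratio was 0.44, at the smallest p that the exact permutation test allows (0.1, or 0.16 after adjustment over the 8 partner pairs compared).

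Cd14, the lipopolysaccharide-binding coreceptor of monocytes and macrophages (chr18:36725067-36726798, minus strand), was at 280, 306 and 268 CPM in Con and at 360, 317 and 362 CPM in Van. All Van values were above all Con values, though Van replicate 2 exceeded Con replicate 2 by only a small margin, and on quantile-normalised log2 FPKM the groups overlapped. The means were 285 ± 19.1 CPM and 346 ± 25.7 CPM (SD, n = 3 each), a 1.22-fold difference. On the log2 scale this was 0.28 (SE 0.07, 95% interval 0.11 to 0.45), which edgeR did not call (unadjusted p 0.00454, adjusted p 0.101). Cd14 was called by 1 of 10 other settings, DESeq2 (adjusted p 0.00932), and by 0 of the 6 fits that left out a library.

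Ly96, whose product MD-2 holds the lipid A part of lipopolysaccharide against TLR4 (chr1:16688051-16709611, plus strand), was measured at 11.99, 11.4 and 10.6 CPM for Con and 10.1, 11.1 and 11.7 CPM for Van. These values overlapped throughout. The log2 fold change was -0.05 (95% interval -0.28 to 0.18), with an adjusted p of 0.883 in edgeR. For Cd36, a scavenger receptor that takes up oxidised lipids and helps TLR2 and TLR6 (chr5:17781690-17888801, minus strand), the values were 335, 273 and 284 CPM in Con and 354, 249 and 264 CPM in Van. The highest and the lowest of the 6 values were both from Van libraries, and the coefficient of variation was 11.1% in Con and 19.8% in Van. Its log2 fold change of -0.04 (95% interval -0.35 to 0.27) had an adjusted p of 0.929 in edgeR.

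The TLR4 transcript itself averaged 39.8 ± 2.25 CPM for Con against 36.5 ± 1.92 CPM for Van (SD, n = 3 each), with a log2 fold change of -0.12 and an adjusted p of 0.439 in edgeR. Relative to it, and per length, the 3 partners of TLR4 signalling took different courses. The FPKM ratio of Ly96 to Tlr4 was 1.81 in Con and 1.93 in Van as geometric means, with overlapping libraries (exact permutation p = 0.4). The ratio of Cd14 to Tlr4 went from 18.1 to 24.4 and that of Cd180 to Tlr4 from 8.72 to 5.89, each with no overlap between the groups (exact permutation p = 0.1, adjusted 0.16). In Van there was thus more Cd14 transcript and less Cd180 transcript for each Tlr4 transcript in all 3 libraries. The ratio of Cd36 to Tlr2 was 1.70 and 1.47 and overlapped (exact permutation p = 0.3), where Tlr2 averaged 202 ± 51.2 CPM for Con and 219 ± 19.8 CPM for Van (SD, n = 3 each).

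**Figure D2:**
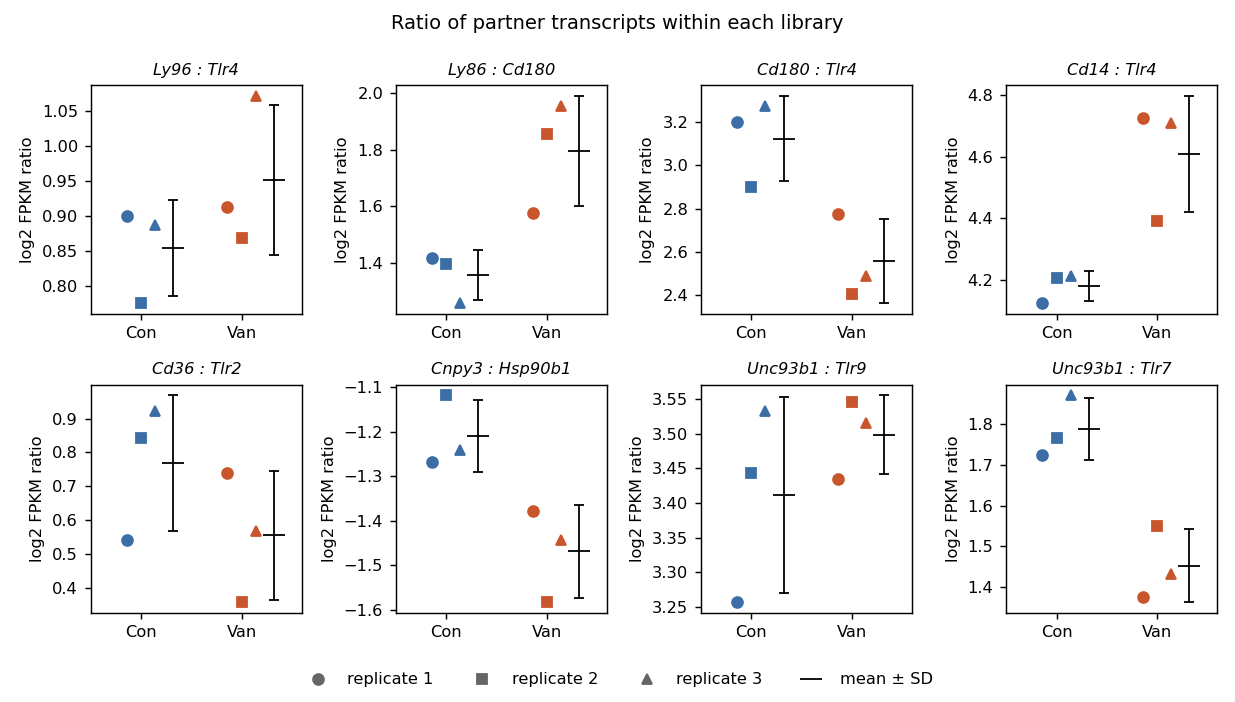
Each panel shows the log2 ratio of the FPKM of 2 partner genes within a library, with 1 point per library for Con (blue) and Van (orange) and the mean with its SD (n = 3); the axes do not start at 0. The groups are apart for Ly86 to Cd180, Cd180 to Tlr4, Cd14 to Tlr4, Cnpy3 to Hsp90b1 and Unc93b1 to Tlr7, and overlap for the other 3 pairs.

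Unc93b1 was the most abundant of the helper genes (chr19:3935186-3949340, plus strand). It was at 796, 765 and 838 CPM in the Con libraries and at 631, 694 and 661 CPM in the Van libraries, again with no overlap. The Con libraries averaged 799.9 ± 36.6 CPM and the Van libraries 662 ± 31.4 CPM (SD, n = 3 each), a difference of 138 CPM and the largest of the 9 genes on the CPM scale. The log2 fold change of -0.27 (SE 0.06, 95% interval -0.41 to -0.14) missed the threshold in edgeR (unadjusted p 0.00151, adjusted p 0.0607). Of 10 other settings, DESeq2 alone called Unc93b1 (adjusted p 0.00148), and 0 of the 6 fits that left out a library did. Of its 2 named clients, Tlr9, the sensor of unmethylated CpG DNA, averaged 124 ± 10.3 CPM for Con and 97.9 ± 1.67 CPM for Van (SD, n = 3 each), with a log2 fold change of -0.34 (adjusted p 0.0509 in edgeR). Tlr7, the sensor of single-stranded RNA, was at 386 ± 8.25 CPM and 415 ± 9.11 CPM (log2 fold change 0.11, edgeR adjusted p 0.336). The FPKM ratio of Unc93b1 to Tlr9 was 10.6 in Con and 11.3 in Van with overlapping libraries (exact permutation p = 0.5), while the ratio to Tlr7 was 3.45 in Con and 2.74 in Van with no overlap (exact permutation p = 0.1, adjusted 0.16).

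Hsp90b1 encodes gp96, the ER paralogue of the cytosolic HSP90 chaperones (chr10:86690209-86705509, minus strand). Genes of ER chaperones are known to carry the ER stress response element, a pair of short boxes through which the factors NF-Y and ATF6 act, in their promoters. The element is shown here because Hsp90b1 was the 1 gene with 2 exact matches among the genes with a promoter window. The bases from chr10:86705510 to chr10:86705694 (GRCm38, minus strand, RefSeq promoter table), which lie before the RefSeq start and end directly before the GENCODE start, the more upstream of both, contain it on both strands, with the boxes in capitals:

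Hsp90b1 promoter: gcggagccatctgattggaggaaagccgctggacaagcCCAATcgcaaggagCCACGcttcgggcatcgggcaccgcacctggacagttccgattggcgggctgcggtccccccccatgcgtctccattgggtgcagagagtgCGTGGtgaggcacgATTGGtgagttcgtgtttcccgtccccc

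The motif searched was CCAAT, then 9 bases of any kind, then CCACG, by exact letters on both strands of the windows from 250 bases before to 50 bases after each start. It was present in 37 of the 27025 genes with a window (0.137%), and Hsp90b1 was the 1 gene with 2 matches. Their centres lay 202.5 and 97.5 bases before the RefSeq start, which is downstream of the GENCODE start. Among 13 other genes of ER lumen chaperones with a window, 6 held the motif once. The elements are given here 5′ to 3′ in the direction of the motif, so that the second Hsp90b1 element is the reverse complement of the stretch above, and the capitals mark both boxes while the lower case marks the spacer, in which they differ:
Hsp90b1 distal (chr10:86705638-86705656): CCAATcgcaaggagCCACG
Hsp90b1 proximal (chr10:86705533-86705551): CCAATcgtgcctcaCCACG
Hspa5 (chr2:34772025-34772043): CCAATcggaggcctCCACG
Calr (chr8:84847075-84847093): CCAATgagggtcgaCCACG
Canx (chr11:50325800-50325818): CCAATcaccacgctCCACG
Pdia6 (chr12:17266491-17266509): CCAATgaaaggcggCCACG
Dnajc3 (chr14:118937827-118937845): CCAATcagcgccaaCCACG
Creld2 (chr15:88819520-88819538): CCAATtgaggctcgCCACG

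Of the 9 helper genes, 5 had a promoter window (Cd36, Cd180, Ly86, Cnpy3 and Hsp90b1), and Hsp90b1 was the 1 that held the element. None of the 10 TLR genes with a window held it. The letters GAGGAA, the core bound by the myeloid factor PU.1, were found in the windows of Cnpy3 and Hsp90b1 and in 31.3% of all genes with a window. The letters of the glucocorticoid response element (GNACA, 3 bases of any kind, TGTNC) were in none of the 5 windows and in 0.537% of all genes with one. Such matches describe the letters of these windows and say nothing about the binding of a factor in these cells.

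The level of Hsp90b1 was 436, 398 and 443 CPM in Con and 510, 598 and 531 CPM in Van. All 3 Van libraries were above all 3 Con libraries, and Van replicate 2 was the highest. The means were 426 ± 24.3 CPM and 547 ± 45.8 CPM (SD, n = 3 each), a 1.28-fold difference. The log2 fold change of 0.36 (SE 0.07, 95% interval 0.19 to 0.53) had an unadjusted p of 0.00103 and an adjusted p of 0.050006 in edgeR, just above the threshold of 0.05. Its side of the threshold therefore turned on small choices: it was called under 6 of 10 other settings, with adjusted p-values from 3.9e-04 (DESeq2) to 0.393 (limma on log2(FPKM + 0.1)), and under none of the 6 fits that left out a library. Its exons share 415 bases with 1810014B01Rik on the opposite strand (0.572 FPKM) and 84 with Gm15344 on the same strand (4.19 FPKM). Of the identifiers with at least 10 CPM, 93.9% had a smaller absolute log2 fold change than Hsp90b1.

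Cnpy3, the cochaperone that gp96 needs for TLRs (chr17:46735705-46752214, minus strand), was the most even of the 9 genes, with a coefficient of variation of 1.31% in Con and 1.76% in Van. It was at 114, 112 and 114 CPM in Con and at 122, 126 and 124 CPM in Van. The groups did not overlap, by a small difference of 10.5 CPM between means of 113 ± 1.48 CPM and 124 ± 2.18 CPM (SD, n = 3 each). At a log2 fold change of 0.13 (SE 0.05, 95% interval 0.01 to 0.25), edgeR did not call it (unadjusted p 0.0353, adjusted p 0.262). Among the Van libraries, Cnpy3 and Hsp90b1 ranked alike, with replicate 2 highest and replicate 1 lowest. Per length, the ratio of Cnpy3 to Hsp90b1 transcript was 0.432 in Con and 0.361 in Van with no overlap (exact permutation p = 0.1, adjusted 0.16).

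Lrrc32 encodes GARP, a carrier of latent TGF-beta on regulatory T cells and platelets. It was close to the limit of detection, at 6.75, 17.2 and 14.9 estimated counts in Con and 12.2, 22.5 and 6.44 in Van. In CPM these were 0.130, 0.287 and 0.343 in Con and 0.199, 0.442 and 0.114 in Van. The highest and the lowest value were both from Van libraries. The log2 fold change of -0.03 had a 95% interval from -1.53 to 1.47 (adjusted p 0.992 in edgeR), so that changes of more than 2-fold in either direction lay within the interval at this depth. The 4 regulatory T cell markers summed to between 2.49 and 4.63 CPM and the 6 platelet and megakaryocyte markers to between 14.6 and 33.2 CPM.

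**Figure D3:**
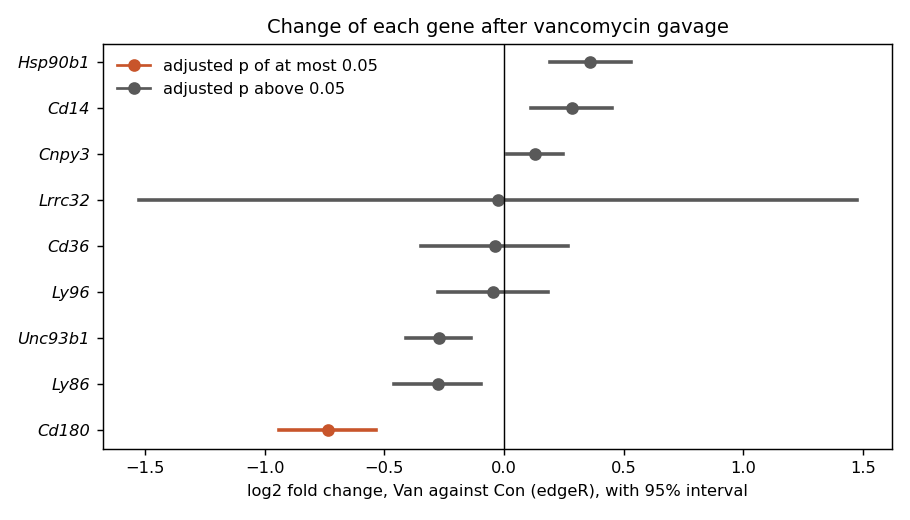
The log2 fold change of each of the 9 genes in Van against Con from edgeR is plotted with its 95% interval, in orange where the adjusted p was at most 0.05 and in grey otherwise. Cd180 at -0.74 is the 1 orange point, the intervals of 5 other genes leave out 0, and that of Lrrc32 runs from -1.53 to 1.47.

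Levels of different genes were compared per length, in FPKM over the 6 libraries. Unc93b1 was highest with a mean of 292 FPKM, above 99.1% of the genes with any signal, followed by Ly86 (171 FPKM), Cd14 (168 FPKM) and Hsp90b1 (146 FPKM). Cd36 (92.3 FPKM), Cd180 (58.9 FPKM) and Cnpy3 (57.3 FPKM) followed, then Ly96 (14.9 FPKM), with Lrrc32 far below (0.0558 FPKM). Of the 8 neighbouring pairs in this order, all but 3 kept their order in all 6 libraries. Ly86 was above Cd14 in 3 of 3 Con libraries and below it in 3 of 3 Van libraries, with means of 187 ± 18.5 and 151 ± 8.77 FPKM in Con and of 155 ± 6.73 and 185 ± 11.2 FPKM in Van (SD, n = 3 each). Cd180 and Cnpy3 changed places in the same way, from 72.9 ± 6.62 and 55.1 ± 1.48 FPKM in Con to 44.8 ± 4.19 and 59.4 ± 1.68 FPKM in Van. Cd14 was above Hsp90b1 in 5 of 6 libraries, so the order of this pair was not the same in every library, and Hsp90b1 also exceeded Ly86 in Van replicates 1 and 2.

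The 6 lists of genes around the helpers were read from the same fit, and edgeR called no gene on any of them, nor did limma on log2(FPKM + 1). Among the 15 other ER lumen chaperones, all 15 were higher in Van, and 9 of them had an unadjusted p under 0.05. Their median log2 fold change was 0.26, and it was 0.17 without Van replicate 2. The number higher was 14 under both limma fits and without Con replicate 1 or Van replicate 3, and 15 under the other alternatives. DESeq2 called 7 of these 15, against 7.36% of all genes with an adjusted p from DESeq2. The smallest p was that of Pdia6, a protein disulphide isomerase, with 125, 113 and 128 CPM for Con and 144, 183 and 168 CPM for Van (log2 fold change 0.44, SE 0.09, adjusted p 0.0573 in edgeR). Hspa5, the ER HSP70 known as BiP, averaged 566 ± 61.7 CPM for Con and 676 ± 67.7 CPM for Van (SD, n = 3 each, log2 fold change 0.26, adjusted p 0.226 in edgeR) with overlapping groups. Van replicate 2, the highest for Hsp90b1, was also the highest for Hspa5, Pdia6, Pdia4, Calr and Canx. Hsp90b1, at 0.36, lay above the median of this list and below Pdia6, Pdia4 (0.40), Hyou1 (0.40) and Creld2 (0.46).

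For the 20 other factors of TLR trafficking and processing, 16 were higher and 4 lower in Van, with a median log2 fold change of 0.07. At an unadjusted p under 0.05 were 5 that were higher and 0 that were lower, and DESeq2 called 4. Slc15a4, an endolysosomal histidine transporter needed for TLR7 and TLR9 signalling, had the smallest p (142 ± 8.70 CPM in Con and 169.8 ± 5.21 CPM in Van, SD, n = 3 each, log2 fold change 0.26, adjusted p 0.0778 in edgeR). Without Con replicate 2 the division was 12 higher and 8 lower. Unc93b1, with its lower values in Van, was on the other side of zero from the 16. Of the 12 TLR genes, 5 were higher and 7 lower with a median of -0.10, 1 and 4 of them at an unadjusted p under 0.05, and DESeq2 called 2 (Tlr1 and Tlr9). Without Con replicate 1 the TLR genes divided into 6 and 6 with a median of 0.0033.

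Among 6 tested of 9 other surface accessory proteins, 3 were higher and 3 lower, with 0 and 2 at an unadjusted p under 0.05 and 1 called by DESeq2. That gene was Itgam, the CD11b integrin chain, with 1124.8 ± 16.5 CPM for Con and 971 ± 31.2 CPM for Van (SD, n = 3 each, log2 fold change -0.21, adjusted p 0.0741 in edgeR). The 10 other scavenger receptors, of several structural classes, divided into 5 higher and 5 lower with a median of -0.01, with 3 and 2 at an unadjusted p under 0.05 and 0 called by DESeq2. The smallest p there was that of Scarb2, a lysosomal membrane protein, with a log2 fold change of 0.14 (adjusted p 0.206 in edgeR). The list of latent TGF-beta carriers and activators around Lrrc32 had 4 of 8 tested genes higher and 4 lower, with 0 and 1 at an unadjusted p under 0.05 and 1 called by DESeq2. This was the integrin chain Itgav (log2 fold change -0.43, adjusted p 0.131 in edgeR).

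**Figure D4:**
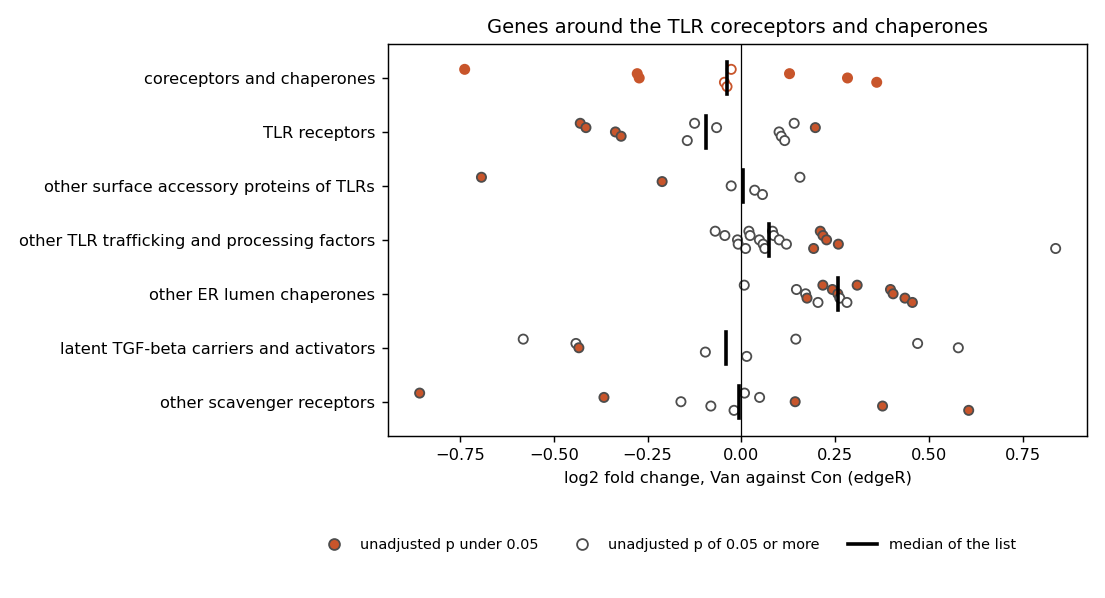
Each point is the log2 fold change of 1 tested gene in Van against Con from edgeR, by list, filled where the unadjusted p was under 0.05, with a bar at the list's median. The helper genes lie on both sides of 0 around a median of -0.04, whereas the 15 other ER lumen chaperones lie to the right of 0 with a median of 0.26.

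For each helper gene with a mean of at least 10 CPM, the genes with the most similar course over the 6 libraries were found by Pearson's r of log2 CPM, as a description only, since the libraries share the group difference. Nearest to Cd180 were Cyld, a deubiquitinase that restrains NF-kB signalling (r = 0.996), and Ifit2, an interferon-induced gene (r = 0.994), with log2 fold changes of -0.24 and -0.75. Nearest to Hsp90b1 were Rrp36 (r = 0.996) and Cyp39a1 (r = 0.993), and nearest to Cnpy3 were Zbtb40 (r = 0.998) and Ywhah (r = 0.996). Cd14 was most like Ppp1r11 (r = 0.995) and Zfp568 (r = 0.992), and Unc93b1 most like Zbtb22 (r = 0.991) and Cab39l (r = 0.987). For Ly86 they were 9930111J21Rik2 (r = 0.987) and Mfap3 (r = 0.984), for Cd36 Foxn3 (r = 0.984) and Sf3b1 (r = 0.975), and for Ly96 Gm6863 (r = 0.980) and Tmem9b (r = 0.974). No helper gene was among the nearest pair of another. Between helper genes, r was highest for Cnpy3 and Hsp90b1 (0.984) and lowest for Cd14 and Unc93b1 (-0.968).

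**Figure D5:**
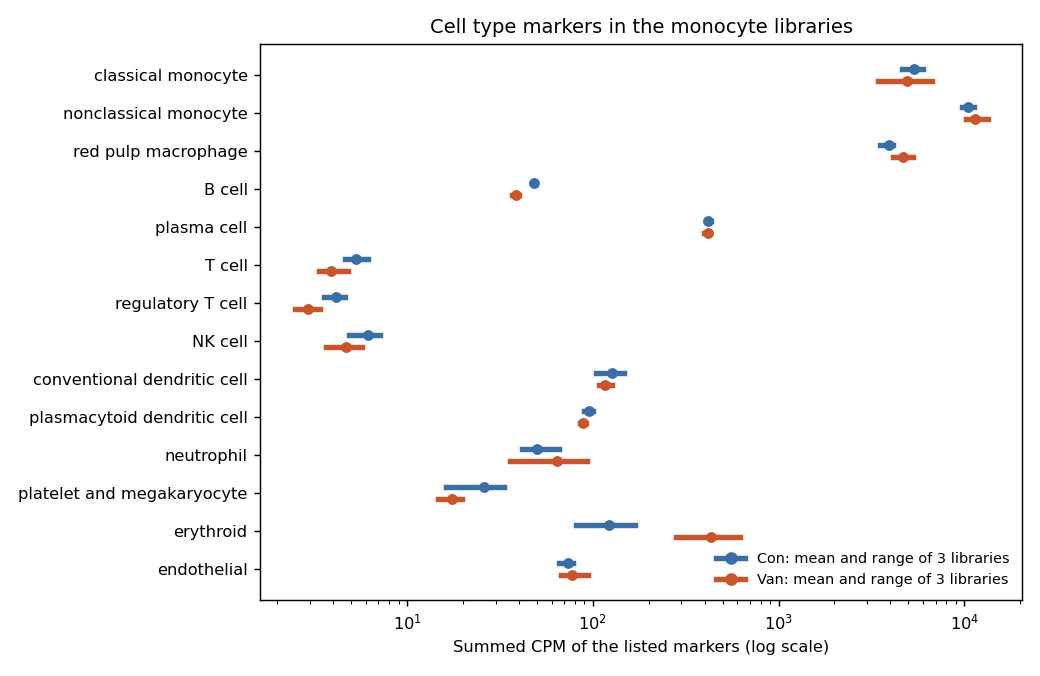
The summed CPM of each marker list is shown on a log scale, with the mean as a point and the range of the 3 libraries as a bar, for Con (blue) and Van (orange). Monocyte and red pulp macrophage markers are highest, B cell markers lie at 47.1 to 49.1 CPM in Con and 36.8 to 39.9 CPM in Van, and the erythroid sum of 282 to 622 CPM in Van lies above its Con range.

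The other marker lists gave the following values. Summed markers of T cells were between 3.34 and 6.16 CPM (5 of 6 lower in Van) and those of NK cells between 3.65 and 7.16 CPM (3 of 4 lower). Those of plasma cells were between 399 and 434 CPM (4 of 5 lower). Neutrophil markers were between 35.9 and 92.5 CPM (6 of 7 lower) and endothelial ones between 65.7 and 94.5 CPM (2 of 4 lower). Single genes made up most of these sums. As means in Con, Xbp1 held 276 of 418 CPM (plasma cell), Mmp8 42.2 of 50.3 CPM (neutrophil) and Stab2 70.7 of 73.2 CPM (endothelial). In Van the mean plasma cell sum was 417 CPM. The mean neutrophil sum was higher in Van, at 64.3 CPM, with Mmp8 at 59.7 CPM. Of the regulatory T cell markers 3 of 4 and of the platelet markers 5 of 6 were lower as well. In these 7 lists edgeR called 0 genes, with 7 lower and 1 higher at an unadjusted p under 0.05, and DESeq2 called 1, a plasma cell marker. Conventional dendritic cell markers summed to between 104 and 148 CPM in Con and between 108 and 126 CPM in Van, with 5 of 6 lower in Van and Clec9a called (log2 fold change -1.12, edgeR adjusted p 0.0131). Plasmacytoid ones summed to between 85.5 and 99.8 CPM, with 3 of 5 lower and 0 called by edgeR (2 at an unadjusted p under 0.05, and 1 called by DESeq2). Of the 7 classical monocyte markers, 3 were higher and 4 lower in Van, and 2 were called, Ccr2 as lower (log2 fold change -0.83, edgeR adjusted p 0.0283) and Vcan as higher (1.54, edgeR adjusted p 0.0309). By number of genes, the macrophage and erythroid markers were all higher in Van and the B cell markers all lower. Most of the T, NK and plasma cell, neutrophil and platelet markers were lower too. The mean neutrophil sum was nevertheless higher in Van and the plasma cell sum nearly unchanged. The classical monocyte (3 higher, 4 lower), nonclassical monocyte (4 higher, 3 lower) and plasmacytoid dendritic cell markers (2 higher, 3 lower) were divided between both directions. Of the nonclassical ones, 2 higher and 1 lower had an unadjusted p under 0.05 in edgeR, which called 0, and DESeq2 called 1. Conventional dendritic cell markers were mostly lower (1 higher, 5 lower). The part of any of these cells in the differences of the helper genes was not tested.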

How the data were processed

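Stranded mRNA libraries of splenic monocytes, 3 of the Con and 3 of the Van group, were analysed, and the samples were grouped by the treatment in the labels. The study's data statement names another deposit, so the libraries were matched to the study by treatment, and its further group, given a lipid, was not analysed here. The study states 24303 expressed genes and 962 called by DESeq2. The same numbers were found here, with 24303 identifiers above 0 in a library and 962 called by DESeq2. Per the submitters' notes and the study's methods, the authors aligned reads with HISAT2 2.2.1 and SAMtools 1.9 to GRCm38 and made FPKM values with StringTie 2.1.3 and Ballgown, scaled to length and library size. The deposited estimated counts were derived from these with tximport 1.26.1. They are not whole, and 52.3% to 55.0% of them became whole on rescaling to reads of 75 bases (within 0.05), whereas 100 bases are stated, so they scale with fragments and are not fragments. Precision at low counts is therefore overstated by an unscaled count, and this was tried as an alternative (counts times 3/8).

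The expected counts were rounded and fitted in R 4.3.3 with edgeR 4.0.16 (TMM, filterByExpr at a minimum count of 10, quasi-likelihood test, group alone in the model). Adjustment was by Benjamini-Hochberg over all 16138 identifiers tested, and CPM values use TMM library sizes. Single values were tested with exact two-sided permutation tests over the 20 splits of 6 libraries. On the fragment scale, libraries of 1 group differed by more than sampling noise (chi-square per gene 7.68 to 16.0), so none was treated as a repeat deposit. The RNA experiment used 3 mice in each group and the labels tie no library to an animal, so p-values measure the spread between these libraries. Alternatives were DESeq2 1.42.0 (the study's tool, in another version), RLE factors, library size alone, no filter, the replicate number as a block, at least 10 counts in every library, limma 3.58.1 on quantile-normalised log2(FPKM + 1) or log2(FPKM + 0.1), the fragment scale, a single identifier per symbol, and each library left out. The fits were tested on simulated data. The named genes are the 9 helpers and their partners in 8 pairs. Also named are the gene with the smallest p of each of 6 lists and the 2 genes most like each helper. Calr, Canx, Pdia4, Hspa5, Hyou1, Creld2, Dnajc3, Clec9a, Ccr2, Vcan, Tlr1, Xbp1, Mmp8 and Stab2 were named after their values were seen. The members and lists were chosen with earlier results of these data known. Coordinates are from GENCODE M21 and promoter sequences from RefSeq (GRCm38.p6).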

Additional observations from a re-analysis of the deposited data

How the results depend on the processing

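The count of genes called was 322 in the analysis reported, 962 with DESeq2, 24 and 0 with limma on log2(FPKM + 1) and log2(FPKM + 0.1), and 21 to 136 when a library was left out (22 without Con replicate 3, 21 without Van replicate 2). Of the 24 calls of limma, 83.3% were higher in Van, against 54.0% of the 322. Of the 8 helper genes given an adjusted p by DESeq2, 5 were called (Cd14 at 0.28, Ly86 at -0.28, Unc93b1 at -0.27 and Hsp90b1 at 0.36 on the log2 scale joined Cd180), against 7.36% of all such genes. Lrrc32 was given no adjusted p by DESeq2, and it was not tested on the fragment scale or at 10 counts in every library. The groups did not overlap for 5 helper genes on quantile-normalised log2 FPKM (without Cd14) and for 7 without Van replicate 1 (with Cd36). Cd180 and Hsp90b1, 2 genes, were called with library size alone (Hsp90b1 0.37), no filter (0.36), at least 10 counts in every library (0.36), the fragment scale (0.36) and a single identifier per symbol (0.36), and 0 by limma on either pseudocount, where Cd180 was at -0.71 (adjusted p 0.0723) and -0.73 (adjusted p 0.186). With a library left out, 0 to 1 helper genes were called, and Cd180 ranged from -0.82 to -0.68, called in 4 of 6. Genes near zero turned sign: Lrrc32 under limma (0.0074 and 0.037), and with a library left out Lrrc32 (-0.74 to 0.34), Cd36 (-0.21 to 0.060) and Ly96 (-0.095 to 0.011). Their causes were not tested. None of 64 recomputed differences of the 8 log2 partner ratios turned sign, but with a library left out those of the 3 overlapping pairs ranged from 0.010 to 0.15 (Unc93b1 to Tlr9), 0.037 to 0.14 (Ly96 to Tlr4) and -0.33 to -0.11 (Cd36 to Tlr2). List medians then ranged from -0.24 to -0.01 (latent TGF-beta genes), 0.17 to 0.33 (ER lumen chaperones), -0.07 to 0.08 (scavenger receptors) and -0.13 to 0.0033 (TLR receptors). The replicate numbers did not pair the libraries (correlations of deviations 0.03, -0.0019 and -0.07), and a replicate block called 110 genes, with Cd180 at an adjusted p of 0.0196 and Hsp90b1 at 0.124. Among the 9 genes, depth limits Lrrc32 most, with at most 22.5 counts in a library.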
